A study of Mus musculus with 2 samples.

Results

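The miR-181 family of microRNAs (miRNAs) was described in the embryonic heart of B6NCrl mice, taken at day 14.5 of gestation. Its members were taken by name from the deposited count tables as Mir181a-1, Mir181b-1, Mir181a-2, Mir181b-2, Mir181c and Mir181d, which are 6 of the 1973 miRNA genes listed there, and all 6 have an entry. The small RNA libraries form 1 group of 2 biological replicates, collected on 15 and 17 July 2014, with no treated, mutant or control group. A heart of 1 pup is given as the source of each library, but both sexes are entered as pooled, so the number of animals behind a library is unclear. Both libraries are of unmodified tissue, and no allele or agent is named.

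A miRNA is cut from a hairpin in a longer transcript, and either arm of the hairpin, called 5p and 3p after its position, can be kept as the mature miRNA of a silencing complex. The seed, bases 2 to 8 of the mature miRNA, does most of the pairing with target transcripts, so miRNAs with 1 seed are grouped as a family. In mice miR-181a is known for tuning the T cell receptor threshold of developing thymocytes and for promoting differentiation of muscle precursor cells. miR-181b is known for dampening inflammatory signalling in endothelial cells of mice, and miR-181c for acting on a mitochondrial transcript in the rat heart.

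The 5p miRNAs are shown first because they define the family and decide which reads can be told apart. They are given 5′ to 3′ as RNA, from RefSeq on GRCm38.p6, with the seed in capitals.
mmu-miR-181a-5p: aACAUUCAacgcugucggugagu
mmu-miR-181b-5p: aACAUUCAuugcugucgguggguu
mmu-miR-181c-5p: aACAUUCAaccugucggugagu
mmu-miR-181d-5p: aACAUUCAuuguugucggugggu
All 4 have the seed ACAUUCA, and 0 other mature miRNAs among the 1679 names in the same table have it. Counting from 1 at the 5′ end, miR-181a-5p and miR-181b-5p differ by A9U, C10U and A21G over 23 bases. miR-181b-5p and miR-181d-5p differ over 23 bases only by C12U. miR-181c-5p is 1 edit from miR-181a-5p, by a base that is present in miR-181a-5p and missing in miR-181c-5p.

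The 6 genes lie in pairs at 3 places in the mouse genome (coordinates of build mm10). Mir181a-1 (ENSMUSG00000065565.1, chromosome 1, 137966455 to 137966541, plus strand) and Mir181b-1 (ENSMUSG00000065458.1, 137966639 to 137966718) are 97 bases apart. Both lie in an intron of the non-coding gene Gm4258 on the same strand. They also overlap an exon of the lincRNA A430106G13Rik on that strand, and Mir181a-1 does so only with its last bases. Mir181a-2 (ENSMUSG00000065423.1, chromosome 2, 38852735 to 38852810, plus strand) and Mir181b-2 (ENSMUSG00000065578.1, 38853830 to 38853918) are 1019 bases apart. They lie opposite an intron of Nr6a1, which encodes a nuclear receptor, and Mir181b-2 also lies opposite an exon of Gm44144. Mir181c (ENSMUSG00000065483.1, chromosome 8, 84178873 to 84178961, minus strand) and Mir181d (ENSMUSG00000076338.1, 84178716 to 84178787) are 85 bases apart. Both lie in an intron of Nanos3, a gene of germ cell maintenance, on the same strand. The entry of Mir181c has a later version number in the annotation used for coordinates than in the count tables, so its span there may differ from the span that was counted.

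The genes of the a and b pairs make the same 5p miRNA from both loci, so 1 mature sequence has 2 sources. Their hairpins are shown with the longest stretch around the 5p miRNA that both copies hold in capitals and the rest in lower case.
Mir181a-1: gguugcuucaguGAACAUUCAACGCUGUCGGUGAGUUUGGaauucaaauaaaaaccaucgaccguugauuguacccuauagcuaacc
Mir181a-2: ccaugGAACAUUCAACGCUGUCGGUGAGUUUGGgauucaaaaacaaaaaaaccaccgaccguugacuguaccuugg
Mir181b-1: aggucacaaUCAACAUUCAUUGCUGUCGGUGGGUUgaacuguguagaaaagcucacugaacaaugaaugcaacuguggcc
Mir181b-2: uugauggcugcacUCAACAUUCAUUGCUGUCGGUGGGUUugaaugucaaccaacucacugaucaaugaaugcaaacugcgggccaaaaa
The copies of miR-181a share 28 bases, and, counted from the start of the 5p miRNA, the hairpins next differ by A28G. The copies of miR-181b share 26 bases and next differ by G25U, at the base that follows the mature miRNA. The 3p miRNAs differ between copies, by U5C and U16C over 22 bases from Mir181a-1 to Mir181a-2. From Mir181b-1 to Mir181b-2 they differ by A9U over the first 21 bases, and the listed 3p miRNA of Mir181b-2 runs on to 22. A read inside a capital stretch matches both copies exactly. Reads that mapped to several places were kept out of the gene counts by the authors, as 2496903 reads in replicate 1 and 2190149 in replicate 2, and how many of them are miR-181a-5p or miR-181b-5p was not measured.

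Of the 6 members, 4 have a 5p miRNA whose windows of 20 bases occur in another hairpin, and 0 have a 3p miRNA of which this is true, among the 1005 hairpins of the RefSeq table. Mir181c and Mir181d are the members whose 5p windows were found in no other hairpin there. In the whole hairpin, 9 of 68 windows of Mir181a-1, 9 of 57 of Mir181a-2, 7 of 61 of Mir181b-1 and 7 of 70 of Mir181b-2 were shared, against 0 of 53 of Mir181d. With 1 mismatch allowed over the whole 5p miRNA, Mir181d also matched the miR-181b hairpins, which makes 5 of the 6 members.

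**Figure D1:**
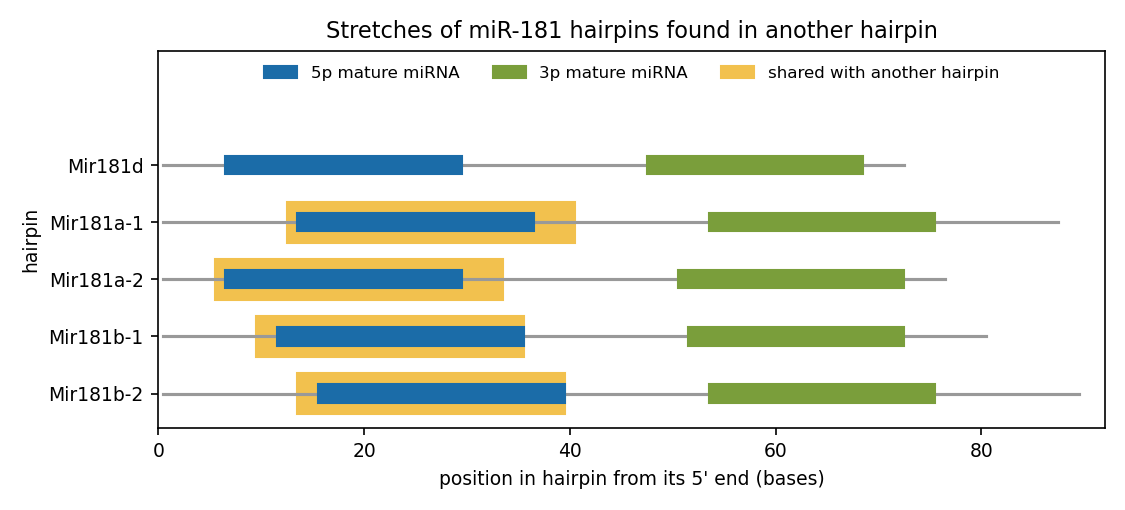
Position of the mature miRNAs (blue, 5p; green, 3p) in 5 miR-181 hairpins, in bases from the hairpin's 5′ end on the horizontal axis, with stretches covered by 20-base windows found in another hairpin in yellow; Mir181c is not drawn. The yellow stretch holds the whole 5p miRNA and none of the 3p miRNA in the 4 copies of miR-181a and miR-181b, and Mir181d has none.

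The libraries held 8150499 reads in replicate 1 and 7269505 in replicate 2, and miRNA genes received 4327424 and 3839984 of these on the strand that was counted. Levels are given as CPM (counts scaled to the assigned reads, as 1000000 per library), which are not scaled by length since a small RNA read covers a mature miRNA whole. Without molecular identifiers reads are not independent molecules, so the exact 95% intervals below cover counting error only. Heart muscle markers (Mir208a, Mir208b, Mir499, Mir1a-1 and Mir133a-1) summed to 75758 and 79359 CPM, with all 5 detected. Mir208b made up most of this sum, at 66314 and 66822 CPM. Mir1a-1, with 13 and 10 counts, and Mir133a-1, with 12 and 12, were near the minimum of 10 counts for detection.

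The family took a small part of the assigned reads. Its sum was 7188 CPM in replicate 1 and 6666 in replicate 2, or 6927 ± 369 (SD, n = 2), which is 0.693% ± 0.0369 of the assigned reads. All 6 members reached 10 counts in each library, a level that 17.1% of the 1973 genes reached. At least 1000 counts in each library were found for 4 members, against 6.39% of all genes. No member had a read on the opposite strand in either library.

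The Mir181c and Mir181d locus held most of the counted reads. It gave 5170 CPM in replicate 1 and 4987 in replicate 2 (5078 ± 130), against 841 and 806 (823 ± 24.7) for Mir181a-1 with Mir181b-1, and 1177 and 873 (1025 ± 215) for Mir181a-2 with Mir181b-2. Its share of the family was 71.9% in replicate 1 (exact Clopper-Pearson interval 71.4 to 72.4) and 74.8% in replicate 2 (74.3 to 75.3), or 73.4% ± 2.04. It exceeded the Mir181a-1 and Mir181b-1 locus 6.15-fold in replicate 1 (exact interval 5.94 to 6.37) and 6.19-fold in replicate 2 (5.96 to 6.43). It exceeded the Mir181a-2 and Mir181b-2 locus 4.39-fold (4.26 to 4.53) and 5.71-fold (5.51 to 5.93). The levels at chromosome 8 lay above both other loci in each library with no overlap.

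The loci of the a and b copies were less clearly ordered. The chromosome 2 locus exceeded the chromosome 1 locus 1.40-fold in replicate 1 (1.34 to 1.46) and 1.08-fold in replicate 2 (1.03 to 1.14). It was the higher of these in each library, and its 873 CPM in replicate 2 was close to the 841 CPM of the chromosome 1 locus in replicate 1. These sums leave out reads that fit both copies, whereas no such loss was found for exact matches of Mir181c and Mir181d among the hairpins searched. The order of the 3 loci therefore applies to counted reads, and whether it holds for the mature miRNAs was not tested.

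**Figure D2:**
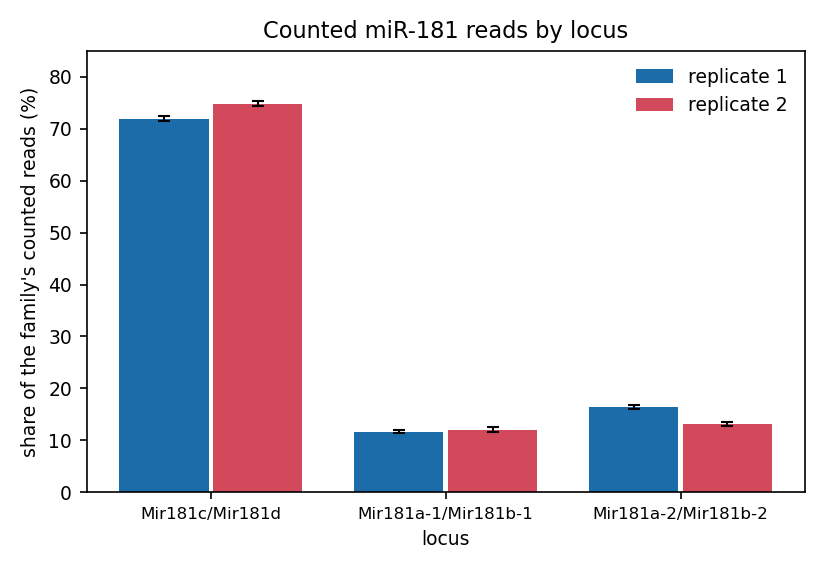
Share of the family's counted reads at each locus, in percent, for each library, with exact 95% binomial intervals that cover counting error only. The Mir181c and Mir181d locus held 71.9% and 74.8%, and each of the other loci held at most 16.4% in either library.

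Mir181c was the highest member, at 2724 CPM in replicate 1 and 2715 in replicate 2 (2719 ± 6.50), which put it at rank 47 and rank 50 of all genes. Mir181d followed with 2446 and 2272 CPM (2359 ± 123), at ranks 50 and 55. Their ranges did not overlap, and Mir181c exceeded its neighbour 1.11-fold in replicate 1 (1.08 to 1.14) and 1.19-fold in replicate 2 (1.16 to 1.23).

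Mir181b-2 had 1058 CPM in replicate 1 and 777 in replicate 2 (918 ± 198), and Mir181a-1 had 829 and 794 (811 ± 24.7). These members could not be ordered, since Mir181b-2 was higher in replicate 1, at 1.28-fold (1.22 to 1.33), and lower in replicate 2, at 0.979-fold (0.931 to 1.03). Mir181d exceeded Mir181b-2, the next member in the order, 2.31-fold (2.23 to 2.39) in replicate 1 and 2.92-fold (2.80 to 3.05) in replicate 2.

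Mir181a-2 was lower, at 119 and 95.6 CPM (107 ± 16.6), from 515 counts in replicate 1 and 367 in replicate 2. Mir181b-1 was the lowest, at 12.0 CPM in both libraries, from 52 and 46 counts. At that depth its interval ran from 8.97 to 15.8 CPM in replicate 1 and from 8.77 to 16.0 in replicate 2. Both members lay apart from their neighbours in the order of levels.

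**Figure D3:**
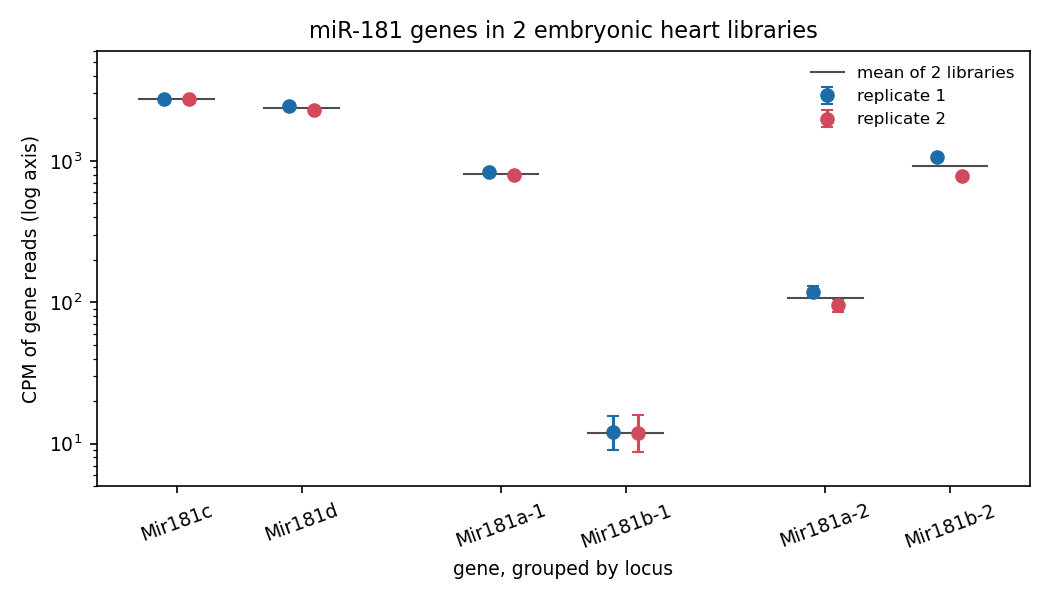
Level of each miR-181 gene in CPM on a log axis, grouped by locus, with 1 point per library, exact 95% Poisson intervals as bars and the mean of the libraries as a line. Mir181c and Mir181d sit at 2272 CPM or above in both libraries, while Mir181b-1 sits at 12.0 CPM beside Mir181a-1 at 829 and 794 CPM.

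In counted reads, neighbours on 1 transcript strand differed little on chromosome 8 and much at the other loci. Mir181a-1 exceeded Mir181b-1 69.0-fold in replicate 1 (52.5 to 92.5) and 66.3-fold in replicate 2 (49.6 to 90.7). On chromosome 2 the b copy was the higher one, and Mir181b-2 exceeded Mir181a-2 8.89-fold (8.11 to 9.76) and 8.13-fold (7.30 to 9.09). The a copy thus led in counted reads on chromosome 1 and the b copy on chromosome 2, in both libraries. Reads that fit both copies of a or of b are left out on these chromosomes. Whether the contrast with chromosome 8 holds for all reads of the genes was not tested.

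Copies of 1 mature 5p miRNA were also far apart in counted reads. Mir181b-2 exceeded Mir181b-1 88.0-fold in replicate 1 (67.0 to 118) and 64.9-fold in replicate 2 (48.5 to 88.8). Mir181a-1 exceeded Mir181a-2 6.97-fold (6.35 to 7.65) and 8.31-fold (7.45 to 9.28). Reads that match exactly inside the shared stretch, which holds the whole 5p miRNA, fit both copies and are left out. The ratios thus compare reads that lie or reach outside that stretch. A gene count does not say which arm those reads came from. The part of the G25U difference and of the 3p arms in these ratios was therefore not tested.

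Summed over copies, the counted reads of a and b were close. Reads that fit both copies are missing from these sums too, so they do not give the levels of miR-181a-5p and miR-181b-5p. Mir181a-1 with Mir181a-2 gave 948 and 890 CPM (919 ± 41.2), and Mir181b-1 with Mir181b-2 gave 1070 and 789 CPM (930 ± 198). The a sum was the lower one in replicate 1 and the higher one in replicate 2, so they could not be ordered.

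Other miRNAs made from a pair of copies were set beside these ratios. Of 14 such pairs listed, 12 have both copies in the tables and 11 had more than 3 counts of each copy in each library. In those 11 pairs the higher copy exceeded the lower by a median of 4.76-fold in replicate 1 and 5.60-fold in replicate 2, with a range over both libraries of 1.25 to 71.6. The ratio passed 10-fold in both libraries for 3 of them. These were Mir92-1 over Mir92-2 at 71.6 and 61.8, Mir7-1 over Mir7-2 at 37.5 and 28.4 with only 4 and 5 counts of the lower copy, and Mir199a-2 over Mir199a-1 at 18.2 and 15.1. The ratios of the miR-181a copies lay inside this range. Those of the miR-181b copies, 88.0 and 64.9, were in each library above the highest of the 11 pairs, Mir92-1 over Mir92-2. In replicate 2 the counting interval of 48.5 to 88.8 included the 61.8 of that pair, and 64.9 lies inside the range over both libraries. The list is not complete. Detected pairs such as Mir125b-1 with Mir125b-2 and Mir194-1 with Mir194-2 are not in it, so the median and this order hold for the listed pairs only. Reads that fit both copies of a pair are left out here as well, so the ratios compare counted reads and not the output of the copies. No difference between these pairs was tested.

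Every member was lower in replicate 2 than in replicate 1 on the CPM scale, by margins that ranged from under the counting error to 1.36-fold. Mir181b-2 had the widest gap, 1.36-fold higher in replicate 1 (1.30 to 1.43), and Mir181a-2 was 1.25-fold higher there (1.09 to 1.43). Mir181d was 1.08-fold higher in replicate 1 (1.05 to 1.11). For Mir181a-1 (1.04-fold, 0.994 to 1.10), Mir181c (1.00-fold, 0.977 to 1.03) and Mir181b-1 (1.00-fold, 0.662 to 1.53) the interval included 1. The chromosome 2 locus as a whole was 1.35-fold higher in replicate 1 (1.29 to 1.41), against 1.04-fold for each of the other loci.

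Of the 170 genes that averaged 100 CPM or more, 4.12% differed by more than 1.5-fold between libraries, and 0 of the 5 members at that level did. In that set 43.5% were lower in replicate 2, as were 5 of the 5 members. The median log2 ratio of replicate 2 to replicate 1, with 1 CPM added, was -0.08 over the 6 members and 0.06 over the 170 genes. DESeq2 size factors shifted all genes by -0.11, to a median of -0.05 over the 170 genes and -0.20 over the members, and all 6 members were below 0 there and with TMM scaling too. With 1 group the difference between the libraries cannot be tied to a condition.

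Cell type markers moved in both directions between the libraries. The red blood cell markers Mir451a and Mir144 summed to 1184 CPM in replicate 1 and 489 in replicate 2. White blood cell markers summed to 493 and 405 CPM, with Mir223 and Mir155 lower in replicate 2 and Mir150 higher, at 13.9 and 16.4 CPM, while Mir142 has no entry. The lymphoid markers Mir150 and Mir155 together were at 148 and 115 CPM. Higher in replicate 2 were the epithelial sum at 753 and 1339 CPM, with 10 of 10 markers higher, the smooth muscle sum (Mir143 and Mir145a) at 64494 and 87098 CPM, and the endothelial Mir126a at 69932 and 75015 CPM. The neuronal sum was 157 and 209 CPM, with 1 of 8 measured markers higher, 2 lower and 5 at 0 in both libraries. The part of any of these cells in the miR-181 levels was not tested, and in bulk tissue fewer cells of a type and less RNA per cell cannot be told apart.

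**Figure D4:**
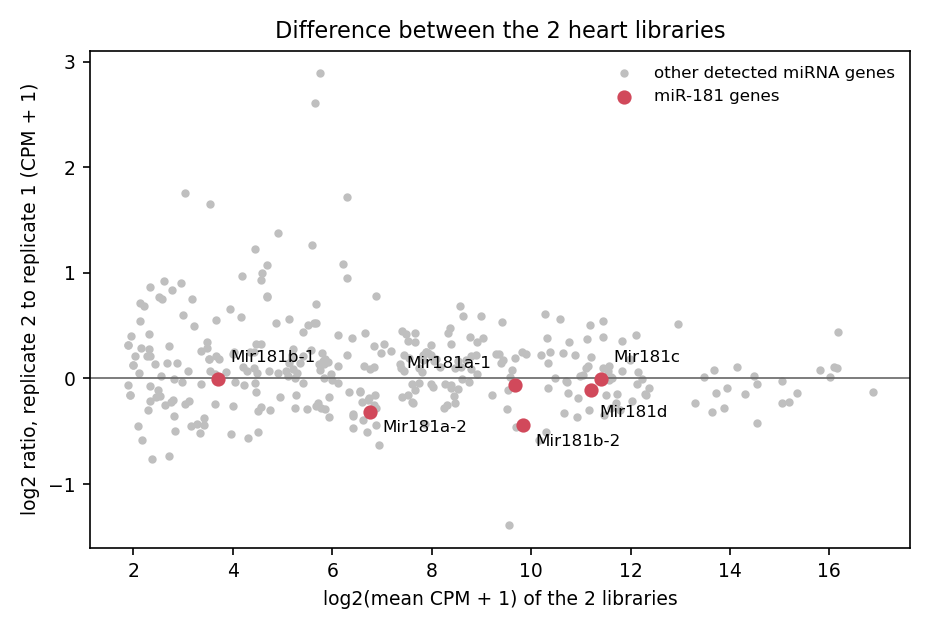
Log2 ratio of replicate 2 to replicate 1 against the log2 mean level, both with 1 CPM added, for detected miRNA genes (grey) and the miR-181 genes (red). All 6 miR-181 genes lie at or below 0, with Mir181b-2 lowest among them at -0.44.

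The genes with the most similar level to each locus in both libraries were found by their distance on the log2(CPM + 1) scale. Nearest to the Mir181c and Mir181d locus were Mir483 (5386 and 4846 CPM, distance 0.07), Mir744 (5286 and 4763, distance 0.07) and Mir20a (5461 and 5122, distance 0.09). Nearest to the Mir181a-1 and Mir181b-1 locus were Mir467e (759 and 802 CPM, distance 0.15), Mir674 (753 and 762, distance 0.18) and Mir337 (763 and 874, distance 0.18). Nearest to the Mir181a-2 and Mir181b-2 locus, at wider distances, were Mirlet7f-2 (1372 and 917 CPM, distance 0.23), Mir501 (1478 and 1039, distance 0.41) and Mir10b (965 and 703, distance 0.42). Likeness here covers 2 libraries of 1 tissue, so it compares levels and not patterns over conditions.

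Neighbouring miRNA genes stood at other levels. On chromosome 8 the nearest listed miRNA gene, Gm25110, is 21.8 kb from the Mir181c and Mir181d locus and had 0 CPM in both libraries. Next is Mir23a, 29.6 kb away on the other strand and the leading miRNA of a cluster with Mir27a, at 22565 and 22964 CPM. Mir23a exceeded Mir181c 8.28-fold in replicate 1 (8.13 to 8.44) and 8.46-fold in replicate 2 (8.29 to 8.63). The nearest listed miRNA genes to the other loci, Gm22132 on chromosome 1 and Gm27634 on chromosome 2, were at 0 CPM in both libraries. At 3 counts a level of 0 allows at most 0.693 CPM (replicate 1) and 0.781 CPM (replicate 2).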

How the data were processed

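Small RNA libraries of embryonic heart (2 libraries, 1 group) were analysed from the read counts per gene that the authors deposited, 1 table per library, not pooled. Per the files' accompanying descriptions the counts refer to mm10 and GENCODE M4. No aligner or counting program is given in the sources used here. The counts are whole numbers, with reads that mapped to several places (30.6% and 30.1% of all reads) and to no gene on that strand (4.58% and 4.89%) on separate lines, which were left out of totals. The single-strand counts of column 3 were scaled to CPM.

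Symbols and coordinates were read from GENCODE M21, on the same assembly (1894 of 1973 identifiers matched by unversioned ID), and sequences from RefSeq tables on GRCm38.p6, where 6 of 6 members have mature sequences and 5 a hairpin. A genome sequence was not searched. Members and lists were chosen with earlier results of these data known. Named genes were the 6 members, the 3 genes nearest each locus in level, 14 listed pairs of copies (older symbols matched through RefSeq synonyms) and marker lists; single genes among the neighbours were named after their values were seen. No test between groups was possible, so means ± SD (n = 2) and exact Poisson, Clopper-Pearson and conditional binomial intervals are given. The labels number the libraries as biological replicates, and their spread includes the day of collection.

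The software was R 4.3.3 and Python 3.11.15 with scipy 1.17.1, pandas 2.3.3 and numpy 2.4.6. TMM scaling (edgeR 4.0.16) and DESeq2 1.42.0 size factors served as alternatives, as did the unstranded column, other totals, pseudocounts, count minimums, thinning and each replicate left out. Ratios, intervals and the search for shared stretches were tested on simulated data. The simulated counts varied by counting error only, as the intervals assume, so other variation between real libraries was not covered.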

Additional observations from a re-analysis of the deposited data

How the results depend on the processing

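The family's summed level was 6927 CPM, against 3669 CPM when scaled to all reads of a library and 7870 CPM with the most abundant gene left out of the total. These totals raise or lower all genes of a library by 1 factor, so shares and ratios between members do not move with them. Ratios and shares of the family are the same with the unstranded column, since no member has a read on the opposite strand, and with 2 libraries a mean without either cannot move by more than the SD, so neither shows stability. All 6 members passed with a minimum of 1 count and with the deeper library thinned, 5 with 100 counts and 4 with 1000. Members with a 5p miRNA found in another hairpin numbered 4 with stretches of 18 or 22 bases and 5 with 1 mismatch. The other 86 alternatives changed a scaling, column, pseudocount or depth. Of these, 58 moved a value by less than its SD or counting interval, and 28 by more. Among ratios between libraries whose interval excluded 1, 0 turned their sign. Only Mir181a-2, Mir181b-2 and Mir181d had such a ratio. Their log2 ratios were negative and both TMM and DESeq2 scaling lowered them further, so this 0 does not show stability. TMM scaling shifted all log2 ratios of replicate 2 to replicate 1 by -0.07 and DESeq2 size factors by -0.11, and 6 of the 28 moved for this reason. No paired analysis was possible because there is 1 group. Depth limits Mir181b-1, with 52 and 46 counts, and no depth recovers reads that map to several places.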
